A study of Mus musculus with 25 samples.

Results

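The Lachnospiraceae of mouse feces include many genera of low abundance beside a few well-known ones, and 15 of these genera are described here. They are the genera whose amplicon sequence variants (ASVs, distinct 16S rRNA gene sequences) carried the family name Lachnospiraceae, after 13 names such as Kineothrix, Lachnoclostridium, Blautia and Gluceribacter were set aside. The 15 genera held 291 of the 1555 ASVs in the table and 12993 of its 300831 counts, which is 4.32% of all counts and 22.6% of the Lachnospiraceae counts. Another 352 ASVs in 9 genera made up the rest of the family. The names are those of the deposited taxonomy, and a name under it stands for the nearest named relative.

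Feces of C57BL/6 mice were profiled by full-length 16S sequencing in 5 groups of 5 libraries. Beside the Sham mice stood 4 groups that share the OVX procedure: OVX alone, OVX+GEX, OVX+PBS and OVX+FMT. OVX usually stands for ovariectomy, PBS for buffered saline and FMT for fecal microbiota transplantation, while GEX, a traditional medicine by the series' description, is not spelled out in the labels. The labels give no age, dose, duration, cage or transplant donor, and they call every mouse male, which is at odds with ovariectomy. Library totals ran from 8498 to 22404 counts, with a median of 10123, and 7 of 10 listed families of the mouse gut made up 83.0% to 94.8% of each library. None of 11 listed genera known as reagent contaminants had a count.

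Lachnospiraceae are anaerobic, mostly spore-forming bacteria of the gut. They ferment plant fibre, sugars and, in some species, the glycans of host mucus, and many release acetate or butyrate, short-chain fatty acids that the host absorbs. A bacterial genome can carry several 16S gene copies that differ slightly, so the number of ASVs is not a number of strains. A share of counts is relative: it can be lower because a bacterium is scarcer or because others are more abundant.

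The 15 genera together took the largest share of counts in Sham. Their summed share was 5.32%, 13.1%, 5.70%, 7.22% and 9.78% in Sham replicates 1 to 5 (mean 8.22% ± 3.23, SD, n = 5). In OVX it was 2.44%, 11.2%, 3.77%, 3.98% and 2.50% (4.77% ± 3.64). OVX replicate 2 stood within the Sham range and the other 4 OVX libraries lay below the lowest Sham library; without replicate 2 the OVX mean was 3.17%. In OVX+GEX the shares were 3.81%, 6.94%, 2.65%, 2.06% and 1.75% (3.44% ± 2.11), and in OVX+PBS 3.70%, 2.83%, 3.14%, 1.71% and 0.996% (2.47% ± 1.10). In OVX+FMT they were 1.51%, 2.15%, 1.72%, 9.19% and 0.816% (3.08% ± 3.45), and without replicate 4 the mean was 1.55%. Of the 20 libraries outside Sham, 17 lay below every Sham library. The 3 exceptions were OVX replicate 2, OVX+GEX replicate 2 and OVX+FMT replicate 4, and OVX+PBS was the OVX group in which all 5 libraries lay below all Sham libraries. The summed share is a description and carries no p-value, since these genera were chosen with results of these data known.

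**Figure D1:**
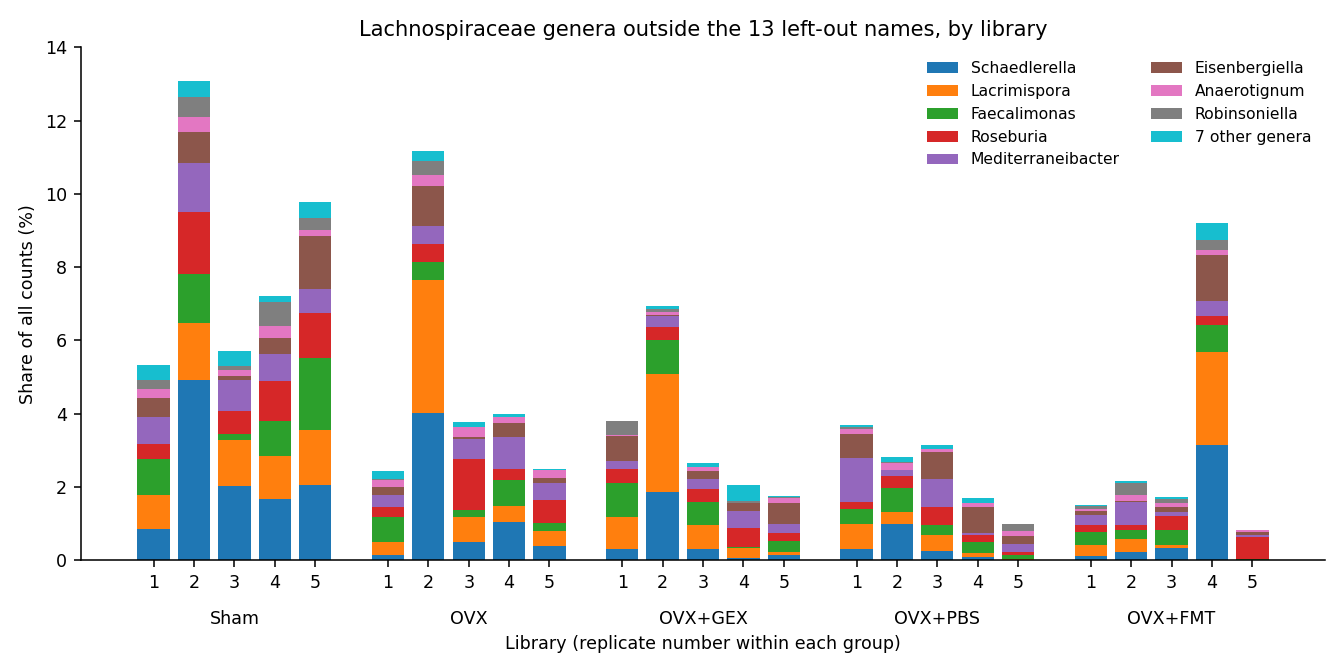
Share of all counts (%, vertical axis) taken by the 15 genera in each of the 25 libraries, stacked by genus, with replicate numbers on the horizontal axis. The tallest bars are Sham replicate 2 at 13.1%, OVX replicate 2 at 11.2%, Sham replicate 5 at 9.78% and OVX+FMT replicate 4 at 9.19%.

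The 9 other Lachnospiraceae genera held 25.2% ± 6.92 of the counts in Sham, 13.7% ± 8.29 in OVX, 14.6% ± 6.73 in OVX+GEX, 11.9% ± 3.34 in OVX+PBS and 9.71% ± 10.5 in OVX+FMT (SD, n = 5). In the 3 libraries named above they held 27.5%, 25.2% and 28.1%, which lies between the lowest and the highest Sham library. As a share of the Lachnospiraceae counts alone, the 15 genera averaged 24.4% ± 6.58 in Sham, 25.4% ± 7.27 in OVX, 18.5% ± 2.75 in OVX+GEX, 16.9% ± 5.26 in OVX+PBS and 23.8% ± 1.17 in OVX+FMT. The groups overlapped on that scale, with Sham at 19.4% to 35.8% and OVX+PBS at 8.45% to 22.8%.

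Fewer ASVs of the 15 genera were found outside Sham. With every library reduced to 8498 counts, the expected number of their ASVs was 60.2 ± 13.2 in Sham, 36.7 ± 14.8 in OVX, 27.3 ± 7.97 in OVX+GEX, 24.1 ± 12.8 in OVX+PBS and 27.1 ± 16.7 in OVX+FMT (SD, n = 5). The OVX+GEX libraries ran from 16.8 to 38.0 and all lay below the lowest Sham library, while OVX replicate 2 reached 61.6 and OVX+FMT replicate 4 reached 55.0. Of the 291 ASVs, 132 (45.4%) were seen in 1 library only, against 39.1% of all ASVs, and 15 (5.15%) were seen in 10 libraries or more, against 12.3% of all ASVs. None was seen in all 25 libraries. Without reduction to equal depth, 183 of the ASVs were seen in Sham, 114 in OVX, 92 in OVX+GEX, 80 in OVX+PBS and 90 in OVX+FMT. Seen in 1 group alone were 72 ASVs in Sham, 22 in OVX, 20 in OVX+GEX, 20 in OVX+PBS and 14 in OVX+FMT. Only 14 of the 72 were seen in at least 2 Sham libraries. The same count over all ASVs was not made, so these counts cannot be read as particular to the 15 genera. The 9 other Lachnospiraceae genera had 92.8 ± 15.5 ASVs at equal depth in Sham, 53.9 ± 26.9 in OVX, 48.5 ± 20.1 in OVX+GEX, 36.7 ± 21.8 in OVX+PBS and 33.2 ± 25.7 in OVX+FMT.

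Schaedlerella, known here by the species S. arabinosiphila, a mouse gut bacterium named for its use of the plant sugar arabinose, was the most abundant of the 15 genera. Its 19 ASVs averaged 1.03% of counts over the 25 libraries. In Sham replicates 1 to 5 it took 0.842%, 4.92%, 2.03%, 1.68% and 2.05%, and in OVX 0.151%, 4.01%, 0.501%, 1.06% and 0.394%. In OVX+GEX it took 0.301%, 1.85%, 0.315%, 0.0706% and 0.158%, and in OVX+PBS 0.313%, 1.00%, 0.251%, 0.0818% and 0. In OVX+FMT it took 0.125%, 0.218%, 0.328%, 3.14% and 0. Each OVX group thus held 1 library well above its others, at 4.01% in OVX replicate 2 (Wilson 95% interval 3.66% to 4.39%, counting error only), 1.85% in OVX+GEX replicate 2 (1.61% to 2.14%), 1.00% in OVX+PBS replicate 2 and 3.14% in OVX+FMT replicate 4 (2.81% to 3.51%). Group means were 2.30% ± 1.54, 1.22% ± 1.59, 0.540% ± 0.742, 0.330% ± 0.398 and 0.763% ± 1.34 (SD, n = 5) in the order above, and without those libraries the means of the OVX groups were 0.526%, 0.211%, 0.161% and 0.168%.

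Lacrimispora, a genus of sugar-fermenting clostridia once placed in Clostridium, was found in all 25 libraries with 88 ASVs, most of them named L. saccharolytica. It held 0.935%, 1.55%, 1.25%, 1.17% and 1.49% in Sham, a narrow range for this set of genera (1.28% ± 0.249, SD, n = 5). In OVX it held 0.355%, 3.63%, 0.675%, 0.435% and 0.404%, and in OVX+GEX 0.884%, 3.23%, 0.653%, 0.259% and 0.0557%. The second library of each of these groups was above every Sham library, and the other 8 were all below the lowest Sham library. In OVX+PBS it held 0.676%, 0.320%, 0.445%, 0.129% and 0.0453% (0.323% ± 0.252), with all 5 libraries below all Sham libraries. In OVX+FMT it held 0.286%, 0.370%, 0.0993%, 2.53% and 0.0203%. Without OVX replicate 2, OVX+GEX replicate 2 and OVX+FMT replicate 4, the means of these groups went from 1.10%, 1.02% and 0.661% to 0.467%, 0.463% and 0.194%. Its most abundant ASV held 9.08% of the genus counts, and 13 different ASVs led the genus in at least 1 library.

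**Figure D2:**
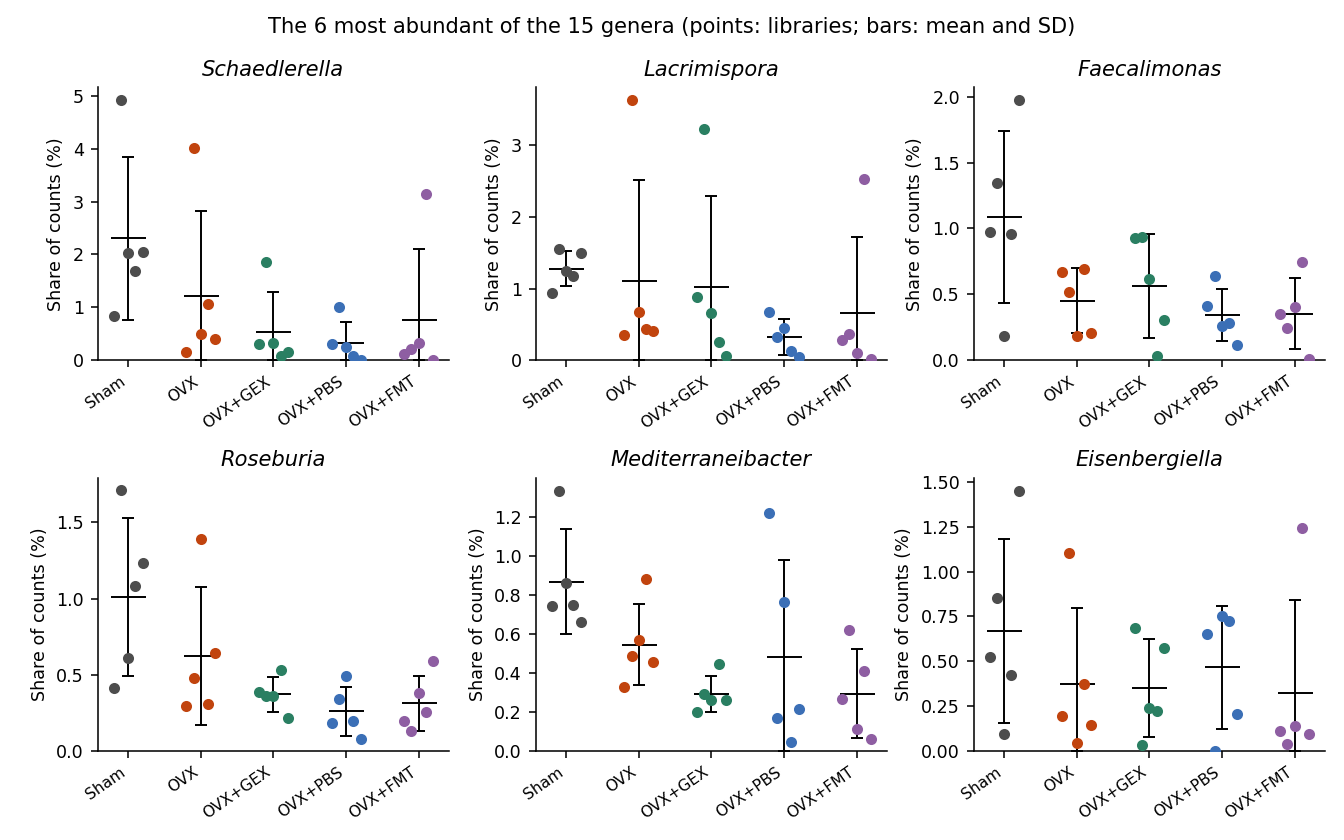
Share of counts (%, vertical axes) of the 6 most abundant of the 15 genera in the 5 groups; points are libraries, and bars are the group mean with its SD, whose lower end stops at 0. Schaedlerella and Lacrimispora show 1 high library in OVX, in OVX+GEX and in OVX+FMT, at 4.01%, 1.85% and 3.14% and at 3.63%, 3.23% and 2.53%.

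Faecalimonas, named here by F. umbilicata, an acetate-forming species described from human feces, held 0.976%, 1.34%, 0.184%, 0.955% and 1.97% in Sham and 0.667%, 0.515%, 0.185%, 0.691% and 0.207% in OVX. It held 0.931%, 0.932%, 0.619%, 0.0353% and 0.306% in OVX+GEX, 0.414%, 0.640%, 0.262%, 0.280% and 0.113% in OVX+PBS, and 0.353%, 0.247%, 0.407%, 0.749% and 0.0101% in OVX+FMT. Sham replicate 3 was the low Sham library, as low as the lowest OVX library. Means were 1.09% ± 0.651, 0.453% ± 0.244, 0.565% ± 0.393, 0.342% ± 0.198 and 0.353% ± 0.268 (SD, n = 5) in that order of groups.

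Roseburia, motile butyrate producers of the colon, held 0.411%, 1.71%, 0.610%, 1.08% and 1.23% in Sham and 0.293%, 0.479%, 1.39%, 0.306% and 0.643% in OVX. It held 0.385%, 0.361%, 0.360%, 0.530% and 0.214% in OVX+GEX, 0.184%, 0.338%, 0.491%, 0.199% and 0.0792% in OVX+PBS, and 0.196%, 0.133%, 0.377%, 0.253% and 0.593% in OVX+FMT. Unlike Schaedlerella and Lacrimispora, it was not high in OVX replicate 2, OVX+GEX replicate 2 or OVX+FMT replicate 4. Of its 46 ASVs, 29 were named R. faecis and held 1053 of its 1547 counts. R. faecis averaged 0.822% in Sham, 0.423% in OVX, 0.242% in OVX+GEX, 0.115% in OVX+PBS and 0.165% in OVX+FMT, and the other 3 Roseburia species averaged at most 0.105% in any group.

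Mediterraneibacter holds the mucin-degrading gut species formerly called Ruminococcus gnavus. It took 0.740%, 1.33%, 0.858%, 0.745% and 0.661% in Sham and 0.329%, 0.488%, 0.566%, 0.879% and 0.456% in OVX. It took 0.197%, 0.291%, 0.259%, 0.447% and 0.260% in OVX+GEX, and 0.263%, 0.616%, 0.109%, 0.411% and 0.0608% in OVX+FMT. In OVX+PBS it took 1.22%, 0.169%, 0.765%, 0.0467% and 0.215%, a mean of 0.483% ± 0.495 (SD, n = 5) that was 0.299% without replicate 1. All OVX+GEX libraries and all OVX+FMT libraries lay below all Sham libraries. ASVs named R. gnavus held 1222 of the 1560 counts, and those named M. glycyrrhizinilyticus, after its hydrolysis of the liquorice compound glycyrrhizin, held 266. The latter had counts in all 5 libraries of Sham, 3 of OVX, 1 of OVX+GEX, 2 of OVX+PBS and 4 of OVX+FMT.

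Eisenbergiella, a genus first described from human samples, held 0.524%, 0.850%, 0.0921%, 0.424% and 1.45% in Sham and 0.196%, 1.10%, 0.0435%, 0.375% and 0.145% in OVX. It held 0.686%, 0.0301%, 0.236%, 0.224% and 0.576% in OVX+GEX, 0.653%, 0, 0.753%, 0.724% and 0.204% in OVX+PBS, and 0.112%, 0.0379%, 0.139%, 1.24% and 0.0912% in OVX+FMT. The OVX mean was 0.372% and 0.190% without replicate 2, and the OVX+FMT mean was 0.325% and 0.0949% without replicate 4. OVX+PBS, at a mean of 0.467% ± 0.343, lay nearest to Sham (0.668% ± 0.514, SD, n = 5), and the 2 groups overlapped.

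Anaerotignum and Robinsoniella were next in abundance, at 0.160% and 0.154% on average. Anaerotignum, fermenters of amino acids and lactate, held 0.257%, 0.400%, 0.184%, 0.330% and 0.158% in Sham, and 0.213%, 0.298%, 0.283%, 0.158% and 0.218% in OVX. In OVX+GEX it held 0.0470%, 0.0902%, 0.113%, 0 and 0.121%, so that all 5 libraries lay below all OVX libraries and all Sham libraries. The OVX+PBS libraries held 0.0685% to 0.187% and the OVX+FMT libraries 0.0405% to 0.161%. Anaerotignum was the only 1 of 81 tested genera (1.23%) whose OVX+GEX and OVX libraries did not overlap. Its edgeR log2 fold change was -1.41 (SE 0.83), with an unadjusted p of 0.0979 and an adjusted p of 0.566 (0.254 to 0.945 over the alternatives), so it did not pass. It was singled out after its values were seen.

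Within Anaerotignum the species differed. A. faecicola made up all of the genus in OVX, OVX+GEX and OVX+FMT. A. lactatifermentans, known for turning lactate into acetate and propionate, had 13, 8, 4, 6 and 5 counts in Sham replicates 1 to 5, spread over 4 ASVs, and 0 counts in all 20 other libraries. Its mean of 0.0629% in Sham was at least 2.14-fold higher than in OVX, where a count of 0 allows 0.0294% on average with a floor of 3 counts per library. Of 173 species names in the table, this was the only 1 (0.578%) found in every Sham library and in no other, and 2 (1.16%) were found in every Sham and no OVX library. The 3 Sham libraries of 9735 to 10130 counts held 13, 8 and 5, while 3 libraries outside Sham with 19736 to 22403 counts held 0. Sham replicates 3 and 4, of 17367 and 22404 counts, held 4 and 6. Their shares of 0.0230% and 0.0268% lay under the mean OVX floor of 0.0294%. An effect of depth was not tested. This species, too, was chosen after its values were seen, and its test was not run apart from the genus.

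Robinsoniella, named here by R. peoriensis, a species first isolated from swine manure, was present in all 5 Sham libraries with 22, 53, 16, 149 and 32 counts. It had 3, 42, 0, 0 and 0 counts in OVX, 38, 8, 0, 5 and 5 in OVX+GEX, 9, 4, 0, 0 and 17 in OVX+PBS, and 14, 34, 10, 28 and 0 in OVX+FMT. The ASV that held 77.1% of its counts, ASV_105, was found in 5 Sham, 2 OVX, 3 OVX+GEX and 3 OVX+FMT libraries and in no OVX+PBS library, where the genus was made up of other ASVs.

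The remaining 7 genera each averaged at most 0.0539%. Anaerotaenia, anaerobes first isolated from a reactor fed with cattle waste, had 19, 28, 61, 0 and 0 counts in Sham, and 30 counts in OVX+FMT replicate 4, 9 in OVX+PBS replicate 4, and 7 and 3 in OVX replicates 1 and 5. Faecalicatena, known here by the former Eubacterium contortum, had 4, 11, 4, 32 and 21 counts in Sham. It was found in 3 OVX libraries, 2 OVX+GEX libraries, 1 OVX+PBS library and no OVX+FMT library. Anaerocolumna, named here by a cellulose degrader, was found in 1 library of Sham, 1 of OVX, 3 of OVX+GEX, 3 of OVX+PBS and 3 of OVX+FMT, with at most 15 counts in any of them. Tyzzerella, named by the quail gut pathogen C. colinum, had 10 counts in Sham replicate 5, 20 and 3 in OVX replicates 2 and 3, 7 and 4 in OVX+GEX replicates 2 and 4, 12 in OVX+FMT replicate 4 and none in OVX+PBS. Acetatifactor, first isolated from an obese mouse, was found in 3 libraries of Sham, 2 of OVX, 2 of OVX+GEX, 1 of OVX+PBS and 1 of OVX+FMT. Variimorphobacter had 8 counts in 3 libraries, and the bracketed name [Eubacterium], with the butyrate producer rectale, had 5 counts in Sham replicate 3.

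Counts per genus were tested with edgeR's quasi-likelihood test on the whole table. Of the 15 genera, 13 passed the filter (3 counts or more in 5 libraries or more); Variimorphobacter and [Eubacterium] did not. For OVX against Sham, none of the 13 passed an adjusted p of 0.05, against 0 of all 81 genera (0%), and none had an unadjusted p under 0.05, against 9 of 81 (11.1%). DESeq2 and limma on centred log-ratios called none of the 13, and 1 each of all 81. Estimates were lower in OVX for 9 of the 13 and higher for 4, with a median log2 fold change of -0.40 against 0.15 over all genera. For Schaedlerella the estimate was -0.51 (SE 1.12), for Faecalimonas -0.83 (SE 0.74), for Robinsoniella -1.69 (SE 1.45) and for Lacrimispora 0.23 (SE 0.91), and Lacrimispora turned to -0.22 with plain totals. Without OVX replicate 2 the estimates were -1.99 for Schaedlerella, -5.25 for Robinsoniella and -1.22 for Lacrimispora. Scaled by plain totals, the median over all genera moved to -0.22 and that of the 13 to -0.84. Of the 9 other Lachnospiraceae genera, 4 had a higher and 5 a lower estimate, and none passed.

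**Figure D3:**
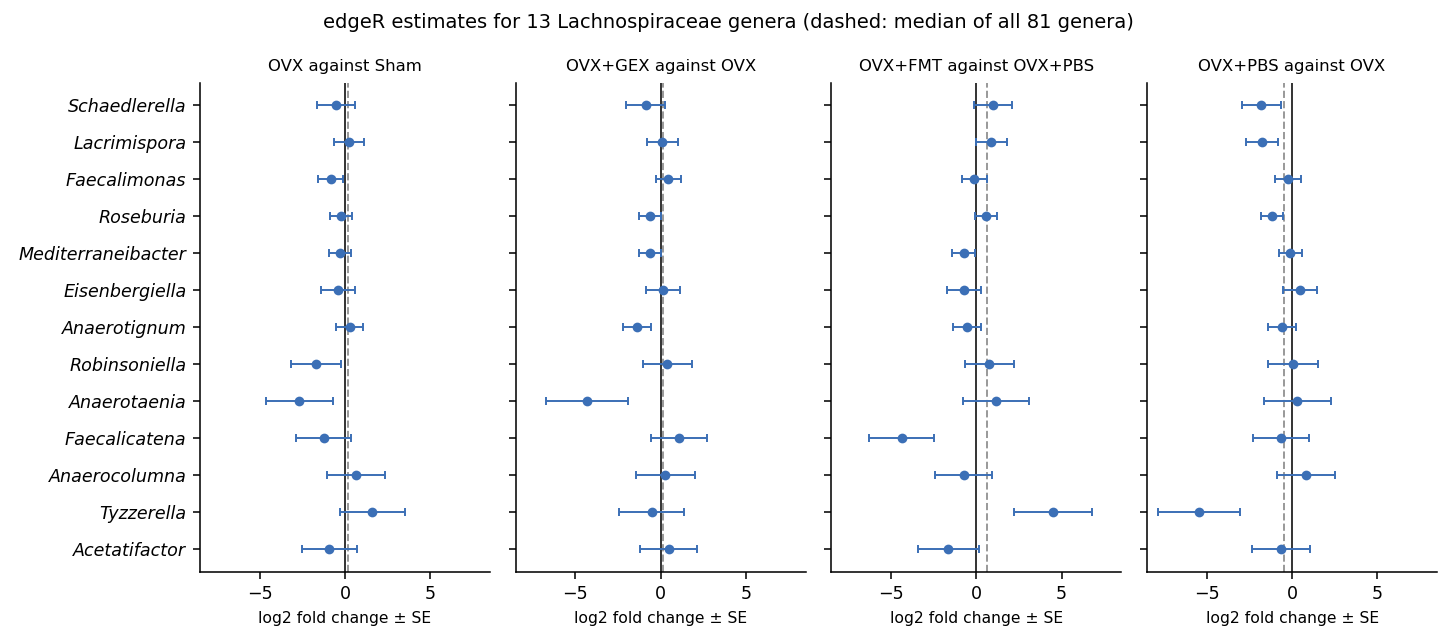
edgeR log2 fold changes (horizontal axes) with their standard errors for the 13 genera tested, in 4 comparisons; the solid line is 0 and the dashed line the median of all 81 genera, at 0.15, 0.13, 0.62 and -0.47 from left to right. None passed an adjusted p of 0.05, and the point farthest from 0 is Tyzzerella in OVX+PBS against OVX, at -5.46, with 0 counts in every OVX+PBS library.

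For OVX+GEX against OVX, none of the 13 passed (0% of all 81 genera did) and none had an unadjusted p under 0.05 (6.17% of all genera did). DESeq2 and limma called none of the 13, against 0 and 1 of all 81. Of the estimates 7 were higher and 6 lower, with a median of 0.09 against 0.13 over all genera. Schaedlerella was at -0.88 (SE 1.13), Lacrimispora at 0.09 (SE 0.91), Roseburia at -0.61 (SE 0.64) and Mediterraneibacter at -0.62 (SE 0.66). Schaedlerella turned to 0.37 without OVX replicate 2, and Lacrimispora to -1.42 without OVX+GEX replicate 2. Anaerotaenia had 0 counts in all 5 OVX+GEX libraries and a mean in OVX of 0.0187%, under the floor, so that no fold is given. Of the 9 other Lachnospiraceae genera 5 were higher and 4 lower, and none passed.

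For OVX+FMT against OVX+PBS, again none of the 13 passed by edgeR (0% of all 81 genera), DESeq2 (0 of 81) or limma (1 of 81). Of the 13, 1 had an unadjusted edgeR p under 0.05 (14.8% of all genera did). That genus was Faecalicatena, with 10 counts in OVX+PBS replicate 2 and 0 in the other 9 libraries of the pair of groups (edgeR unadjusted p = 0.0304, adjusted p = 0.308, 0.253 to 0.595 over the alternatives). Without OVX+PBS replicate 2 it had no counts to compare, and no fold is given. Estimates were higher for 6 and lower for 7, with a median of -0.13 against 0.62 over all genera; the median of the 13 was -0.41 with DESeq2 size factors and 0.04 with plain totals, where 7 were higher and 6 lower. Schaedlerella was at 0.97 (SE 1.13), Lacrimispora at 0.88 (SE 0.92), Roseburia at 0.58 (SE 0.64) and Mediterraneibacter at -0.75 (SE 0.66). Without OVX+FMT replicate 4, Schaedlerella turned to -1.20 and Lacrimispora to -0.71, and without OVX+FMT replicate 5 Roseburia turned to -0.24. Of the 9 other Lachnospiraceae genera 5 were higher and 4 lower, and none passed.

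For OVX+PBS against OVX, none of the 13 passed by edgeR (0% of all 81 genera), DESeq2 (1 of 81) or limma (0 of 81). Of the 13, 1 had an unadjusted edgeR p under 0.05 (13.6% of all genera did). That genus was Tyzzerella, with 23 counts in OVX and 0 in OVX+PBS (edgeR unadjusted p = 0.0311, adjusted p = 0.276, 0.213 to 0.853 over the alternatives); its OVX mean of 0.0427% was at least 1.48-fold above the OVX+PBS floor. It rested on OVX replicate 2, without which the OVX mean was 0.00816%, under the floor. Estimates were lower for 9 and higher for 4, with a median of -0.60 against -0.47 over all genera; with DESeq2 size factors both medians were -0.26. Schaedlerella was at -1.81 (SE 1.15), Lacrimispora at -1.76 (SE 0.94) and Roseburia at -1.20 (SE 0.65), with edgeR adjusted p-values of 0.435, 0.366 and 0.366. Without OVX replicate 2, Schaedlerella was at -0.46 and Lacrimispora at -0.52, and without OVX replicate 3 Roseburia was at -0.63. This comparison shares the OVX libraries with the first 2 comparisons and the OVX+PBS libraries with the third. Of the 9 other Lachnospiraceae genera 3 were higher and 6 lower, and none passed by edgeR.

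A test for any difference among the 5 groups called 3 of 81 genera (3.70%) by edgeR, 7 by DESeq2 and 4 by limma. None of the 13 was called by edgeR, DESeq2 or limma. The smallest edgeR adjusted p among the 13 was 0.249, for Faecalicatena. Set against Sham, shares did not overlap for 2 of the 13 genera in OVX+GEX (Anaerotignum and Mediterraneibacter; 4.94% of all 81 genera did not overlap), for 1 in OVX+PBS (Lacrimispora; 8.64%) and for 2 in OVX+FMT (Faecalicatena and Mediterraneibacter; 6.17%), and each lay below Sham. The shares of all genera are the background for these counts. For Faecalicatena the gap lay within the floor. Its lowest Sham share was 0.0230%, from 4 counts, and 0 counts allow 0.0284%, 0.0298% and 0.0316% in OVX+FMT replicates 2, 3 and 4.

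At the level of single ASVs, 46 of the 291 passed the filter, among 379 of all 1555. No ASV of the 46 had groups that did not overlap in OVX against Sham, where 1.32% of all ASVs did. None of the 46 passed adjustment in any of the 4 comparisons by edgeR, where 0% of the 379 did, nor by DESeq2 or limma. Of all 379, DESeq2 called 2 in OVX against Sham, 2 in OVX+GEX against OVX, 5 in OVX+FMT against OVX+PBS and 5 in OVX+PBS against OVX. Limma called 1 of all 379 in OVX against Sham and 0 in the other comparisons. Unadjusted edgeR p-values under 0.05 were found for 7 of the 46 in OVX against Sham (17.2% of all ASVs), 12 in OVX+GEX against OVX (19.3%), 10 in OVX+FMT against OVX+PBS (21.1%) and 15 in OVX+PBS against OVX (24.8%). Of those 15, 13 were lower in OVX+PBS, against 71 of 94 over all ASVs and 18 of 24 in the other Lachnospiraceae genera. In the first 3 comparisons 5 of 7, 9 of 12 and 2 of 10 were lower. The median log2 fold change of the 46 in OVX+PBS against OVX was -1.81. It was -0.53 over all ASVs and -1.05 in the other Lachnospiraceae genera. With DESeq2 size factors these medians were -1.10, -0.09 and -0.37.

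The test for any difference among the 5 groups, added for ASVs after the values were seen, called 3 of the 46 ASVs and 19 of all 379 (5.01%). ASV_143 of Schaedlerella had 10, 26, 13, 24 and 60 counts in Sham, 0, 25, 15, 6 and 13 in OVX, 7, 47, 0, 0 and 0 in OVX+GEX, and 0 in all 10 libraries of OVX+PBS and OVX+FMT (edgeR adjusted p = 0.0462, 0.0243 to 0.101 over the alternatives). Its mean in OVX was at least 4.06-fold above the OVX+PBS floor (edgeR adjusted p = 0.127 for that pair). ASV_212 of Schaedlerella had 13, 17, 52, 29 and 0 counts in Sham and 10, 21, 8, 0 and 0 in OVX+GEX, and 0 in all 15 libraries of the other groups (edgeR adjusted p = 0.0456, 0.0327 to 0.564). Its Sham mean was at least 5.01-fold above the OVX floor, and its OVX+GEX mean at least 2.68-fold above it, or 1.56-fold without OVX+GEX replicate 2 (edgeR adjusted p = 0.158 and 0.202). ASV_278 of Faecalimonas had 20, 0, 0, 49 and 11 counts in Sham, 10 and 11 in OVX replicates 3 and 4, and 0 elsewhere (edgeR adjusted p = 0.0462, 0.0406 to 0.999). These 3 calls were lost with each other scaling of the counts, with DESeq2 and when most single libraries were left out, with 0 to 4 of the ASVs called. The count was 0 without any single library other than Sham replicate 3, OVX replicates 3 and 4 and OVX+FMT replicates 2 and 4.

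**Figure D4:**
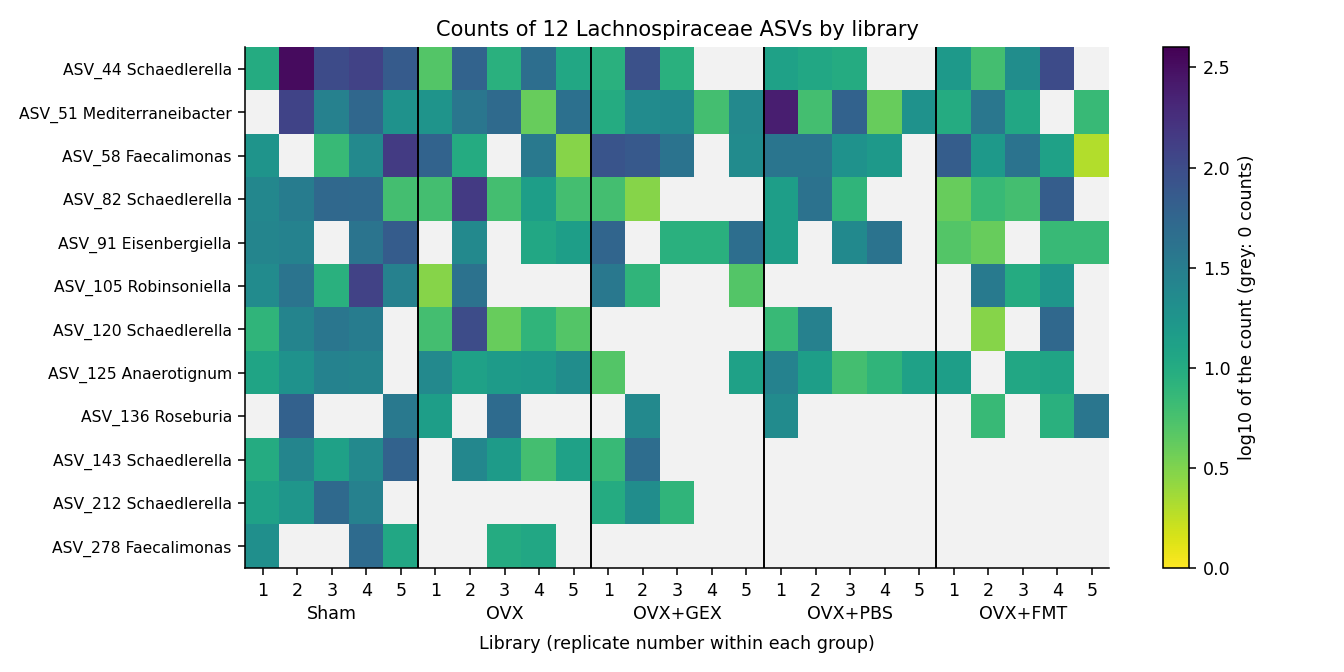
Counts of 12 ASVs (rows) in the 25 libraries (columns, by group and replicate number), as log10 of the count on the colour scale, with 0 counts in grey. ASV_143 is grey in all 10 OVX+PBS and OVX+FMT libraries, ASV_212 is coloured in 4 Sham and 3 OVX+GEX libraries, and ASV_105 is grey in all 5 OVX+PBS libraries.

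Among the 10 most abundant of the ASVs, 4 belonged to Schaedlerella, and they did not follow 1 pattern. ASV_44, the most abundant at 0.374% on average, had 331 counts in Sham replicate 2 and 101 in OVX+FMT replicate 4. ASV_120 had 6, 98, 4, 8 and 5 counts in OVX and 0 in all 5 OVX+GEX libraries, so that its OVX mean was at least 7.17-fold above the OVX+GEX floor (edgeR adjusted p = 0.202, 0.194 to 0.437 over the alternatives). That bound rests on OVX replicate 2, without which it was 1.83-fold. ASV_120 was the 1 ASV of the 46 whose groups did not overlap in that comparison, against 0.528% of all ASVs. ASV_82 had 6, 145, 6, 14 and 6 counts in OVX and 6, 3, 0, 0 and 0 in OVX+GEX (log2 fold change -3.88, SE 1.92, edgeR adjusted p = 0.251), and without OVX replicate 2 the log2 fold change was -1.93.

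ASV_82 was seen in 19 libraries, ASV_120 and the 13th most abundant, ASV_158, in 13 each, and all 3 together in 11. They were singled out after their values were seen. In the 7 libraries with at least 20 counts of ASV_82, ASV_120 stood at 0.320 to 0.844 of its count and ASV_158 at 0.280 to 0.627. Over the same libraries ASV_44 ranged from 0.262 to 10.3 times the count of ASV_82. The 3 ASVs made up 69.1% of the Schaedlerella counts in OVX replicate 2 and 51.0% in OVX+FMT replicate 4, but 1.62% in OVX+GEX replicate 2, where ASV_44 held 91 and ASV_143 held 47 of the 185 counts. ASV_44 had 59, 101 and 91 counts in the 3 libraries.

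**Figure D5:**
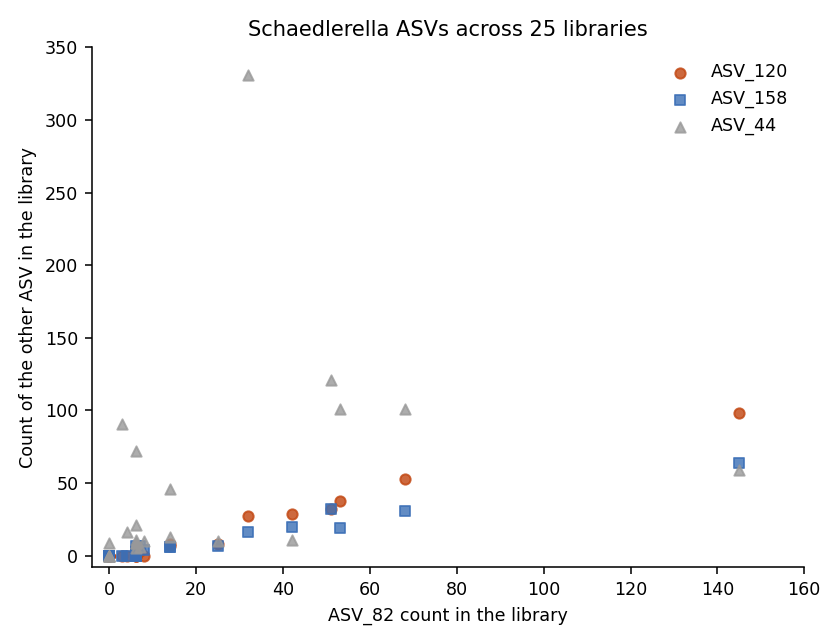
Counts of 3 Schaedlerella ASVs (vertical axis) against the count of another, ASV_82 (horizontal axis), with 1 point per library and ASV. ASV_120 and ASV_158 are highest, at 98 and 64 counts, where ASV_82 is highest, at 145, while ASV_44 has 331 counts at 32 of ASV_82. At low counts the points scatter, with ASV_120 at 0 in OVX+PBS replicate 3, which has 8 counts of ASV_82.

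The other leading ASVs belonged to 6 genera. ASV_51, of the R. gnavus group, was found in 23 libraries, with 241 counts in OVX+PBS replicate 1 and 119 in Sham replicate 2. ASV_58 of Faecalimonas was found in 21 libraries, with 141 counts in Sham replicate 5. ASV_91 of Eisenbergiella was found in 18 libraries, with 70 counts in Sham replicate 5 and 56 in OVX+GEX replicate 1. ASV_125 of Anaerotignum was found in all 5 OVX and all 5 OVX+PBS libraries, and in 4 Sham, 2 OVX+GEX and 3 OVX+FMT libraries. ASV_136 of Roseburia was found in 9 libraries, 1 or 2 in each group except OVX+FMT with 3. ASV_105 of Robinsoniella had 34, 10 and 17 counts in OVX+FMT replicates 2, 3 and 4 and 0 in OVX+PBS, where its OVX+FMT mean was at least 4.18-fold above the floor (edgeR adjusted p = 0.151, 0.110 to 0.527 over the alternatives), or 2.42-fold without OVX+FMT replicate 2.

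Over the 25 libraries, the tested genera most like Schaedlerella in pattern were Lachnoclostridium (Spearman's rho 0.878), Lacrimispora (0.820), Marvinbryantia (0.674), [Clostridium] (0.619) and Hungatella (0.615), on centred log-ratios of the counts. The first 3 belong to the Lachnospiraceae in the table, and [Clostridium] and Hungatella to other families. These coefficients describe the libraries and carry no p-value; all genera of a library share its depth and its total.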

How the data were processed

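Feces of 25 mice, 5 libraries in each of 5 groups, were profiled. The authors deposited a table of read counts per ASV with a taxonomy of 7 ranks, converted from a BIOM file per the file headers; the submitters' processing notes list Subread with no version or role, while the primers, the denoiser and the source of the taxonomy are not given in the sources read. The table holds no value of 1 and 464 values of 2. All 25 columns were matched to samples by name; 5 spelled OVX+GES were taken as OVX+GEX. No 2 libraries of a group were near-duplicates (smallest Bray-Curtis distance 0.300). Cages and litters are not named, and the p-values reflect only how these libraries vary.

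Counts were summed per genus, with [Eubacterium] kept apart by family. The 1 ASV without a genus (13 counts) stayed in the totals. The 81 genera and 379 ASVs with 3 counts or more in 5 libraries or more were tested with edgeR 4.0.16 in R 4.3.3 (TMM, quasi-likelihood F test, all 25 libraries in 1 fit), with Benjamini-Hochberg adjustment over the whole table and a threshold of 0.05. Standard errors come from the F statistic. The tests were first run on simulated data, where they missed most of the differences set in. A genus or ASV that did not pass is thus not shown to be unchanged. Alternatives were other scalings and filters, DESeq2 1.42.0, limma 3.58.1 (centred log-ratios, 0.5 added to each count), fits of 2 groups alone, a block for the replicate number, and each library left out. The genera, lists and rules for naming were chosen with earlier results of these data known: all 15 genera, library values for the 6 most abundant and any with an unadjusted p under 0.05, the 10 most abundant ASVs and any past the threshold. Library values of further genera were added after they were seen. A count of 0 allows up to 3 counts of the library's total; intervals and floors cover counting error only.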

Additional observations from a re-analysis of the deposited data

Results flagged for a closer look

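In 3 libraries the summed share of the 15 genera, or the shares of Schaedlerella and Lacrimispora, stood apart from the other 4 of their group, by a gap larger than Dixon's 95% critical value. Among 48 sets of 5 libraries examined, 14 values stood apart in this way. Chance marks about 1 in 20 independent sets, but these sets are not independent, since the summed share contains the genera, and in 3 of them 4 libraries were at 0, so that any library with counts stands apart; the 14 cannot be read against chance. OVX replicate 2 held 11.2% of the 15 genera together (next highest 3.98%), 4.01% Schaedlerella (next 1.06%), 3.63% Lacrimispora (next 0.675%) and 0.181% Tyzzerella (next 0.0326%). OVX+FMT replicate 4 held 9.19% (next 2.15%), 3.14% Schaedlerella (next 0.328%), 2.53% Lacrimispora (next 0.370%), 1.24% Eisenbergiella (next 0.139%) and 0.127% Tyzzerella, with 0 in the other 4 libraries. OVX+GEX replicate 2 held 1.85% Schaedlerella (next 0.315%) and 3.23% Lacrimispora (next 0.884%).

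Sham replicate 2 had 35.8% of its Lachnospiraceae counts in the 15 genera, against 24.1% in the next library. OVX+PBS replicate 2 held 0.0889% Faecalicatena and Sham replicate 5 held 0.0987% Tyzzerella, with 0 in the other 4 libraries of each group.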

How the results depend on the processing

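The count of the 13 tested genera past the threshold, and of their 46 tested ASVs past it in the 4 pairwise comparisons, was 0 under every alternative listed in the methods. The count of these ASVs differing among the 5 groups was 3 (19 of all 379). It became 0 with DESeq2 size factors, plain totals or TMMwsp, with DESeq2 (1 of all 379) and with the replicate block (17 of all 379). With limma it was 2 (8 of all 379). It was also 0 with the stricter filter (10 libraries), under which ASV_212 and ASV_278 were not tested. With no filter, where many more sparse ASVs are tested, it was 24. The count over all ASVs in that fit is not given here, so the 24 cannot be read as particular to these genera. When single libraries were left out the count ran from 0 to 4, at 3 without Sham replicate 3, 4 without OVX replicate 3 or 4, 1 without OVX+FMT replicate 2, 2 without OVX+FMT replicate 4, and 0 without any other library. Apart from the scale change described next, every group mean of the summed share stayed within 1 SD of its value. As a share of Lachnospiraceae counts, the summed share averaged 24.4% in Sham, 25.4% in OVX, 18.5% in OVX+GEX, 16.9% in OVX+PBS and 23.8% in OVX+FMT. No call reversed. Signs were followed only for genus estimates given in the text and for some pairwise estimates of ASV_82, ASV_105, ASV_120, ASV_143, ASV_212 and ASV_278. None of the ASV estimates followed turned. Of the genus estimates followed, 6, all uncalled, turned. Others turned as well: in OVX+PBS against OVX, 4 of the 13 were higher in the main fit, 5 with DESeq2 size factors and 3 with plain totals. The 6 were as follows. Lacrimispora in OVX against Sham (0.23) was -0.22 with plain totals, -0.0319 with TMMwsp, -0.29 with no filter, -0.00857 with the stricter filter, -0.35 with limma, -0.50 with the replicate block, and from -1.22 to 0.46 with single libraries left out. Lacrimispora in OVX+GEX against OVX (0.09) was -0.11 with plain totals, -0.37 with limma, -0.19 with the replicate block, and from -1.42 to 1.31 with single libraries left out. Schaedlerella in that comparison ran from -2.52 to 0.37 with single libraries left out. In OVX+FMT against OVX+PBS, limma gave -0.18 for Schaedlerella, -0.37 for Lacrimispora and -0.0476 for Roseburia, and single libraries left out gave -1.20 to 2.09, -0.71 to 1.25 and -0.24 to 0.84. Faecalicatena in OVX+FMT against OVX+PBS gave no value without OVX+PBS replicate 2. Over 50 pairs of same-numbered libraries, deviations from the group means correlated at -0.287 to 0.336 (median 0.0578), and 18 pairs were above 0.1. In 0 of 25 libraries was the same number the best match in all other groups at once. That rule is strict, so it cannot decide whether the numbers pair the libraries. Under the replicate block ASV_143, ASV_212 and ASV_278 had edgeR adjusted p-values of 0.0542, 0.0542 and 0.0574. A count of 0 allows up to 0.0134% in the deepest and 0.0353% in the shallowest library.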
